A study of Mus musculus with 15 samples.

Results

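The platelet-derived growth factor (PDGF) receptors and ligands were followed in mouse dental mesenchymal cells (mDMCs) from isolation to 48 h of culture. The genes were chosen by name: the receptor genes Pdgfra and Pdgfrb and the ligand genes Pdgfa, Pdgfb and Pdgfc, each with 1 Ensembl transcript among the 12089 transcripts of the expression table. Over 48 h, Pdgfra fell 6.46-fold and Pdgfa rose 4.61-fold. Pdgfc was 2.88- to 3.38-fold higher at the cultured time points, Pdgfb was higher from 12 h to 36 h and not called at 48 h, and Pdgfrb was modestly lower at 12 h and 24 h and did not pass the test at 36 h or 48 h.

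PDGF ligands are secreted dimers that bring receptor tyrosine kinases together at the cell surface, which then recruit adaptors and switch on the Ras, phosphoinositide 3-kinase and phospholipase C pathways. The receptor PDGFRα, encoded by Pdgfra, binds the A, B and C chains, and PDGFRβ, encoded by Pdgfrb, binds mainly the B and D chains. In the tooth germ, Pdgfra is known as a gene of the neural crest-derived mesenchyme and Pdgfa as a gene of the dental epithelium, whereas Pdgfb from endothelial cells and Pdgfrb on mural cells are known for the coating of vessels.

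The mDMCs came from ICR mouse embryos, and the labels give no other genotype or treatment. As the study's methods describe, mesenchyme of the mandibular first molar germ at E14.5 was freed of epithelium with dispase, digested with trypsin to single cells, and plated in medium with fetal bovine serum. There were 3 libraries of freshly isolated mDMCs (0 h), 2 at 12 h and 3 each at 24 h, 36 h and 48 h, plus 1 library of undissociated dental mesenchymal tissue. The labels do not say whether replicates came from separate litters or cultures, so the p-values measure the spread between these libraries, which may be technical. In such bulk samples, fewer cells of a type and less RNA per cell cannot be told apart.

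The deposited values were whole numbers on a scale fixed by rank. The median was 721 and the top value 127101 in each of the 15 libraries, the totals ran from 21357605 to 21365980, and 71.9% of ranks held the same value in every library. A value therefore tells the rank of a transcript in its library, the sequencing depth cannot be read from it, and the spread between replicates is understated where ranks coincide. No replicate pair was a duplicate, as at most 4.73% of transcripts held the same value in both libraries of a pair. The values are not per transcript length, so levels of different genes are not compared here. Counts of transcripts above Pdgfra only place its value on the rank scale.

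Replicate 1 at 0 h had a summed value of 13749 over the 8 measured epithelial markers, against 1504 and 1817 in the other 0 h libraries and 5340 in the tissue. In that library the adhesion molecule Epcam was at 799 against 118 and 104, and the basal keratin Krt14 at 5832 against 645 and 838. Replicate 1 of 0 h is called the library with the high epithelial markers below, and the Pdgfa results that rest on it are given with and without it. Of 10 listed dental mesenchyme markers 9 were measured, with summed values of 66460 to 81783 at 0 h, 45435 to 54423 at 48 h and 54401 in the tissue. Replicate 3 of 24 h stood out in this sum, at 91396 against 48687 and 55148 in the other libraries of 24 h. The 7 measured red cell markers summed to between 97833 and 150838 at 0 h and to no more than 757 in any cultured library.

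Bases upstream of the start are shown for the receptor gene that fell and for 2 ligand genes that rose, to set the base composition of the genes that moved side by side. They come from RefSeq (GRCm38.p6), run 5′ to 3′ on the gene's strand, and carry CpG dinucleotides in capitals. Each window keeps only bases upstream of both the RefSeq start and the start of the measured transcript. For Pdgfc the starts coincide at 81036416. For Pdgfra the window ends just before the RefSeq start, 75152251, which lies 55 bases before that of the transcript, and for Pdgfa it ends just before the transcript start, 138995037, which lies 93 bases before the RefSeq start, 138994944.
Pdgfra, chr5:75152001-75152250, plus strand: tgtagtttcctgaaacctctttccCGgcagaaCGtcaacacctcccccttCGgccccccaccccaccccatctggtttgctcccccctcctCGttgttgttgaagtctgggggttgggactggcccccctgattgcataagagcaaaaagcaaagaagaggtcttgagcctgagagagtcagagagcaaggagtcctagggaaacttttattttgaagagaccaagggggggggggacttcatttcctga
Pdgfa, chr5:138995038-138995194, minus strand: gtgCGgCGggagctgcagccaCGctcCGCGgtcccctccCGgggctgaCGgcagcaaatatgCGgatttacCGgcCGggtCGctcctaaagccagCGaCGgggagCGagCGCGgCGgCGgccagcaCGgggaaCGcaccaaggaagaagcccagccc
Pdgfc, chr3:81036166-81036415, plus strand: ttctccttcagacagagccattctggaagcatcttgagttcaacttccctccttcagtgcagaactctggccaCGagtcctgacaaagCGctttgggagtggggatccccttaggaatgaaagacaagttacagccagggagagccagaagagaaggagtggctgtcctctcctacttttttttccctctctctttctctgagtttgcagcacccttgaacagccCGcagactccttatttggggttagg

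The Pdgfa window was rich in CpG. Its 157 bases held 20 CpG, more than 95.6% of 32851 RefSeq promoter windows trimmed to the same length, which had a median of 3. The trimmed windows, like that of Pdgfa, kept the bases farthest upstream of the RefSeq start and not those next to it. The Pdgfra window held 4 CpG in 250 bases and the Pdgfc window 3, where the median of windows of that length was 6. The share of windows with fewer was 37.8% for Pdgfra and 29.0% for Pdgfc. Methylation was not measured, and these counts only describe the letters shown.

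On GRCm38, Pdgfra (ENSMUST00000000476) lies on chromosome 5 at 75152306 to 75198215 on the plus strand with 23 exons, and Pdgfrb (ENSMUST00000025522) on chromosome 18 at 61045150 to 61085061 on the plus strand, also with 23 exons. Pdgfa (ENSMUST00000076095) lies on chromosome 5 at 138976014 to 138995037 on the minus strand with 6 exons. Pdgfb (ENSMUST00000000500) has 7 exons on chromosome 15 at 79995874 to 80014808 on the minus strand, and Pdgfc (ENSMUST00000029652) has 6 exons on chromosome 3 at 81036416 to 81214040 on the plus strand.

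Differences between time points were tested with limma on log2(value + 1) in 1 fit over the 14 mDMC libraries, with p-values adjusted by Benjamini-Hochberg over all 12079 transcripts tested and an adjusted p below 0.05 taken as a call. All 5 genes passed the filter on low values. At 12 h, 2 of the 5 genes were called higher than at 0 h, beside 29.9% of all transcripts, and 2 lower, beside 28.3%, which makes 58.2% in either direction. The 24 h libraries had 3 of the genes higher (35.0% of all transcripts) and 2 lower (31.8%, in all 66.9%). By 36 h the numbers were 3 genes higher (36.0%) with 1 lower (34.0%, in all 70.0%), and 48 h gave 2 genes higher (37.1%) with 1 lower (34.0%, in all 71.2%). Being called was thus the common state of a transcript in this time course, and the size and shape of each change say more than the call. The 4 comparisons share the same 3 libraries of 0 h. The level of each gene in every library is plotted against time.

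**Figure D1:**
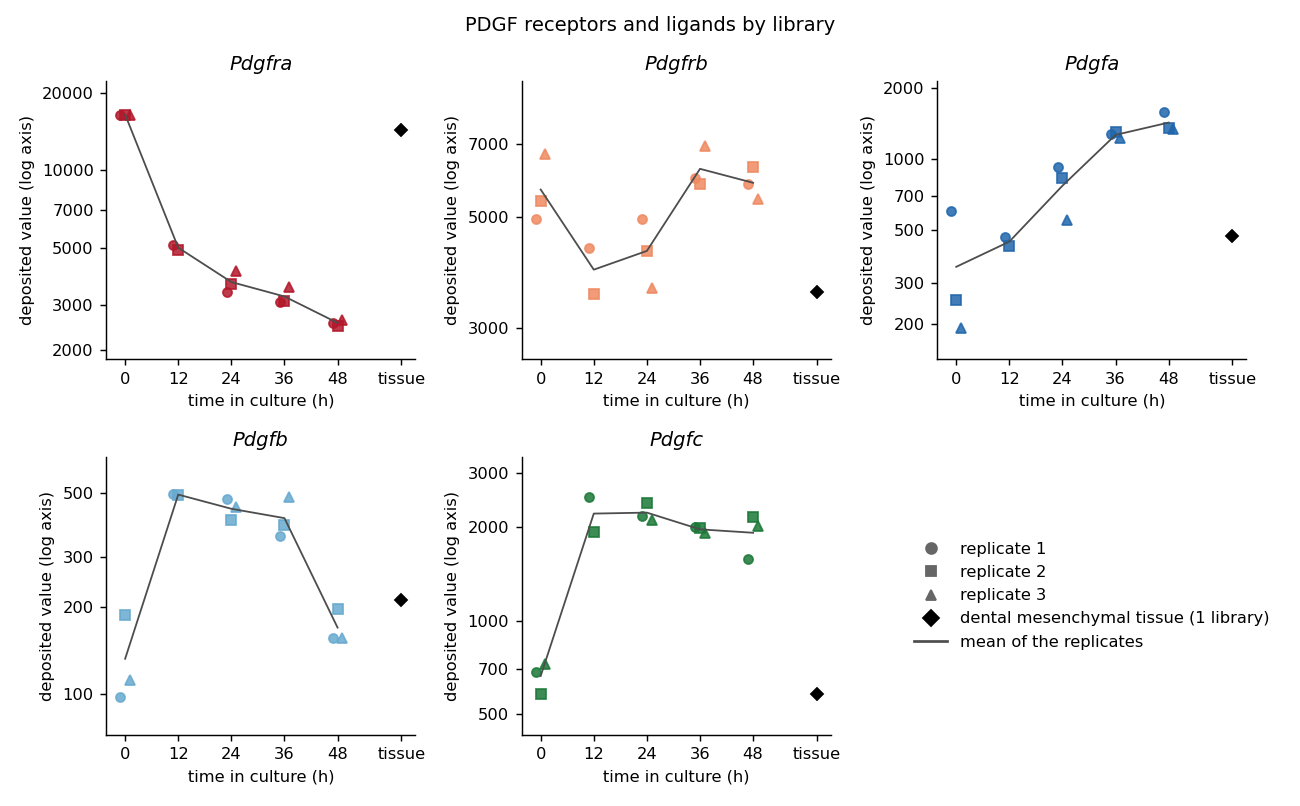
Deposited value (log axis) of Pdgfra, Pdgfrb, Pdgfa, Pdgfb and Pdgfc in each library against time in culture in hours, with the tissue library at the right; symbols mark replicate numbers and lines join the means of the 2 or 3 replicates. The 3 libraries of 0 h coincide at 16448 for Pdgfra, and the 11 cultured libraries all lie below them; for Pdgfc the 11 cultured libraries all lie above those of 0 h.

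Pdgfra, whose product is the receptor for the A and C chains, stood at 16448 in each of the 3 libraries of 0 h. This identity comes from the rank scale, since Pdgfra was the only transcript with that value and 139 transcripts were higher in each of these libraries. The 12 h libraries held 5100 and 4885 and those of 24 h 3367, 3595 and 4048. Pdgfra then stood at 3070, 3106 and 3500 after 36 h and at 2544, 2485 and 2608 after 48 h. Every one of the 11 cultured libraries was below every library of 0 h. By 48 h between 1742 and 1885 transcripts stood higher than Pdgfra in a library.

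The larger part of the fall of Pdgfra came by 12 h. Against 0 h, limma put the log2 change at -1.72 at 12 h (95% interval -1.91 to -1.53, adjusted p = 1.1e-08), a level 3.29-fold lower. It was 4.49-fold lower at 24 h, 5.11-fold lower at 36 h and 6.46-fold lower at 48 h, where the log2 change was -2.69 (95% interval -2.86 to -2.52, limma adjusted p = 3.3e-11). At 48 h, 3.93% of the transcripts tested had a larger fall. The spread at 0 h was 0 on this scale, which narrows the interval.

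In culture, Pdgfra went on falling by smaller steps. The levels ran in the order 0 h, 12 h, 24 h, 36 h, 48 h from high to low. The step from 12 h to 24 h was called (log2 change -0.45, limma adjusted p = 0.0098), where 8.25% of all transcripts were called, and the libraries of 12 h and 24 h did not overlap. This call was lost without replicate 1 of 12 h (log2 change -0.42, limma adjusted p = 0.102). The step from 24 h to 36 h was not called (-0.18, limma adjusted p = 0.117), and the 36 h library at 3500 lay above the 24 h library at 3367. From 36 h to 48 h the libraries did not overlap, but the change of -0.34 missed the threshold (limma adjusted p = 0.124) in a comparison where 0.0248% of all transcripts (3) were called and 1617 had an unadjusted p below 0.05. None of the 5 genes was among the 3, while Pdgfra and Pdgfb had an unadjusted p below 0.05. Over the longer span from 24 h to 48 h the change of -0.52 was called (limma adjusted p = 0.00069), as were 23.8% of all transcripts. From 12 h to 48 h the change was -0.97 (limma adjusted p = 6e-06), where 42.2% of all transcripts were called.

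Pdgfrb, whose product is the receptor for the B and D chains, changed far less and in another shape. The freshly isolated cells held 4959, 5380 and 6692, and the cells of 12 h 4340 and 3512. After 24 h the values were still low, with 4959, 4272 and 3609, and the later libraries came back to 5973, 5832 and 6928 (36 h) and 5832, 6311 and 5423 (48 h). The libraries of 36 h and 48 h were all above those of 12 h and 24 h. Only 4 of the 11 cultured libraries lay below the whole range of 0 h and 1 above it.

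The dip of Pdgfrb was called at 12 h (log2 change -0.53, 95% interval -0.87 to -0.19, limma adjusted p = 0.0110) and at 24 h (-0.41, -0.71 to -0.11, limma adjusted p = 0.0203). The calls were not firm. At 12 h the call was lost without replicate 2 of 12 h (-0.38, limma adjusted p = 0.121). At 24 h it was lost without replicate 3 of 0 h (-0.28, limma adjusted p = 0.0928) and without replicate 3 of 24 h (-0.29, limma adjusted p = 0.0947). At 48 h the change from 0 h was 0.05, with a 95% interval of -0.25 to 0.36 (limma adjusted p = 0.744), which leaves room for changes of up to 1.28-fold in the upward direction.

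From high to low the mean level of Pdgfrb ran 36 h, 48 h, 0 h, 24 h, 12 h, and of the neighbours in that order only 0 h and 24 h passed the test. The rise from 24 h to 36 h was called (log2 change 0.55, limma adjusted p = 0.0172), among 19.7% of all transcripts. It lost its call when replicate 2 or 3 of 24 h or replicate 3 of 36 h was left out, with limma adjusted p values of 0.0502, 0.0770 and 0.0619.

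The 2 receptor genes thus changed by unlike amounts within the same libraries. The log2 value of Pdgfra minus that of Pdgfrb was 1.55 ± 0.22 (SD, n = 3) at 0 h, and the individual libraries lay between 1.30 and 1.73. The mean difference was 0.35 at 12 h and -0.21 at 24 h, and fell further to -0.95 (36 h) and -1.20 (48 h). The 11 cultured libraries ranged from -1.34 to 0.48, so none reached the lowest library of 0 h. On average the cultured libraries were 2.13 lower on the log2 scale, a 4.37-fold smaller ratio, with an exact two-sided permutation p = 0.00275, the smallest that 364 arrangements of 3 and 11 libraries can give. Since neither value is per length, the point where the difference crosses 0 has no meaning of its own.

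**Figure D2:**
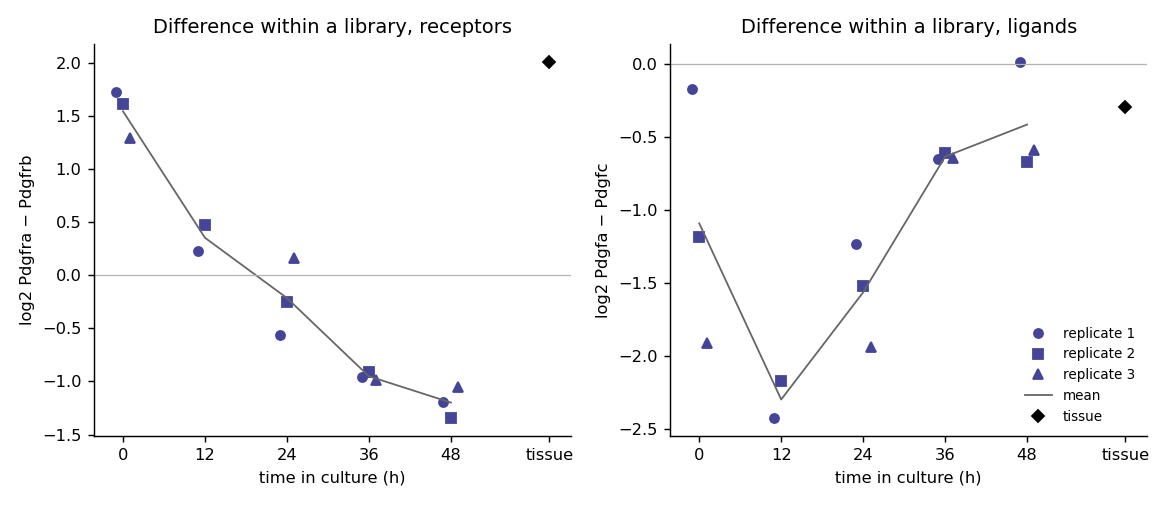
Difference between 2 log2 values in the same library, Pdgfra minus Pdgfrb at the left and Pdgfa minus Pdgfc at the right, against time in culture in hours; symbols mark replicates, lines join means and the diamond is the tissue library. The receptor difference moves from a mean of 1.55 at 0 h to -1.20 at 48 h, while the ligand difference drops to -2.30 at 12 h and returns to -0.42 at 48 h.

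Pdgfa encodes the A chain, a ligand of PDGFRα. Values of 604, 254 and 192 were found at 0 h and of 467 and 428 after 12 h. By 24 h the libraries held 928, 837 and 552. They reached 1275, 1301 and 1230 at 36 h and 1590, 1360 and 1343 at 48 h. Of the 11 cultured libraries, 8 were above every library of 0 h. The libraries of 36 h and 48 h all lay above those of 0 h, 12 h and 24 h, while those of 12 h fell inside the range of 0 h.

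The rise of Pdgfa was gradual. The log2 change from 0 h was 0.53 at 12 h (95% interval -0.24 to 1.30, limma adjusted p = 0.218), 1.28 at 24 h (0.60 to 1.97, limma adjusted p = 0.0031), 2.03 at 36 h and 2.20 at 48 h (1.51 to 2.89, limma adjusted p = 4e-05). At 48 h, 5.16% of transcripts had a larger rise. The widest spread was that of 0 h, where the mean was 350 ± 222 (SD, n = 3) against 1431 ± 138 at 48 h. No step between adjacent time points was called, but the change from 12 h to 48 h was (1.67, limma adjusted p = 0.0026), as for 42.2% of all transcripts.

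The highest Pdgfa value of 0 h, 604, came from the library with the high epithelial markers. Without it the log2 change at 12 h was 1.01 and was called (limma adjusted p = 0.0015), and at 24 h it was 1.77, a 3.40-fold rise in place of 2.44-fold. The changes without it were 2.52 at 36 h and 2.69 at 48 h, which are rises of 5.72-fold in place of 4.10-fold and 6.44-fold in place of 4.61-fold. Leaving it out also brought calls for 24 h against 12 h (0.75, limma adjusted p = 0.0324) and for 36 h against 24 h (0.75, limma adjusted p = 0.0123). Both log2 changes were the same with this library, as no library of 0 h enters them. Only the spread pooled over all time points became smaller. The calls against 0 h of Pdgfra, Pdgfrb, Pdgfb and Pdgfc were the same with and without this library. The part of epithelial RNA in the Pdgfa level of 0 h was not tested.

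Pdgfb encodes the B chain, which binds both receptors. It was at 97, 188 and 112 at 0 h and at 497 and 493 at 12 h. The level then stayed up, at 476, 402 and 447 at 24 h and 354, 388 and 487 at 36 h, before it came down to 156, 197 and 157 at 48 h. Every library from 12 h to 36 h was above every library of 0 h, whereas 2 of 3 libraries of 48 h lay within the range of 0 h.

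The Pdgfb rise was 3.88-fold at 12 h (log2 change 1.96, 95% interval 1.44 to 2.47, limma adjusted p = 1.6e-05), 3.45-fold at 24 h and 3.18-fold at 36 h. At 48 h the change of 0.41 was not called (-0.05 to 0.87, limma adjusted p = 0.0984). That outcome depended on replicate 2 of 0 h, without which the log2 change at 48 h was 0.69 (limma adjusted p = 0.0026). The drop from 36 h to 48 h was 2.39-fold with no overlap between the libraries, and its unadjusted p of 5.3e-05 gave a limma adjusted p of 0.0696. Against 12 h and 24 h, the 48 h level was called lower, by 1.54 and 1.38 on the log2 scale (limma adjusted p = 0.00028 and 0.00077).

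Endothelial cells are a known source of Pdgfb, so their markers are given beside it. The 10 of 12 listed endothelial markers that were measured summed to 10971 to 12972 at 0 h and to no more than 4018 in any cultured library, and 9 of the 10 were called lower at every time. The exception was Flt1, a receptor for vascular endothelial growth factor, which was called higher. The adhesion molecule Pecam1 fell from 1953 or more at 0 h to 18 or less at 48 h, and the junction protein Cldn5 was listed at 0 in all libraries from 24 h on. At 12 h, where Pdgfb was highest, Pecam1 was at 129 and 97 and the endothelial receptor gene Tie1 at 16 and 14. At 36 h, with Pdgfb still at 354 to 487, Pecam1 was at 13 or less and Tie1 at 2 or less, but Kdr was at 413 to 518 and Egfl7, a secreted endothelial protein, at 130 to 140. The part of endothelial cells in the Pdgfb level was not tested. No marker of the platelet list was in the table.

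For Pdgfrb the matching list is that of pericytes and mural cells. Without Acta2, which reached the highest value of the table in culture, its 7 measured markers summed to 8961 to 10286 at 0 h, 6304 to 7023 at 12 h, 7534 to 9923 at 24 h, 11266 to 12169 at 36 h and 10511 to 12018 at 48 h. This sum was formed after the values had been seen. With Acta2 the sum ran from 9504 to 10590 at 0 h and from 133405 to 134124 at 12 h. Only the sum without Acta2 was lower at 12 h than at 0 h. In that sum the lowest library was at 12 h and the highest at 36 h. These times also held the lowest and the highest Pdgfrb values in culture. The list moved unevenly, since its pericyte marker Rgs5 went from between 1908 and 2515 at 0 h to 170 or less in every cultured library. Kcnj8 and Abcc9, subunits of a pericyte potassium channel, likewise went from 141 or more and 217 or more to 15 or less and 17 or less, and Notch3 was also lower. The later sum rested mainly on Mcam and Cspg4, at 5473 to 5830 and 2878 to 4993 at 36 h. The part of mural cells in the Pdgfrb level was not tested.

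**Figure D3:**
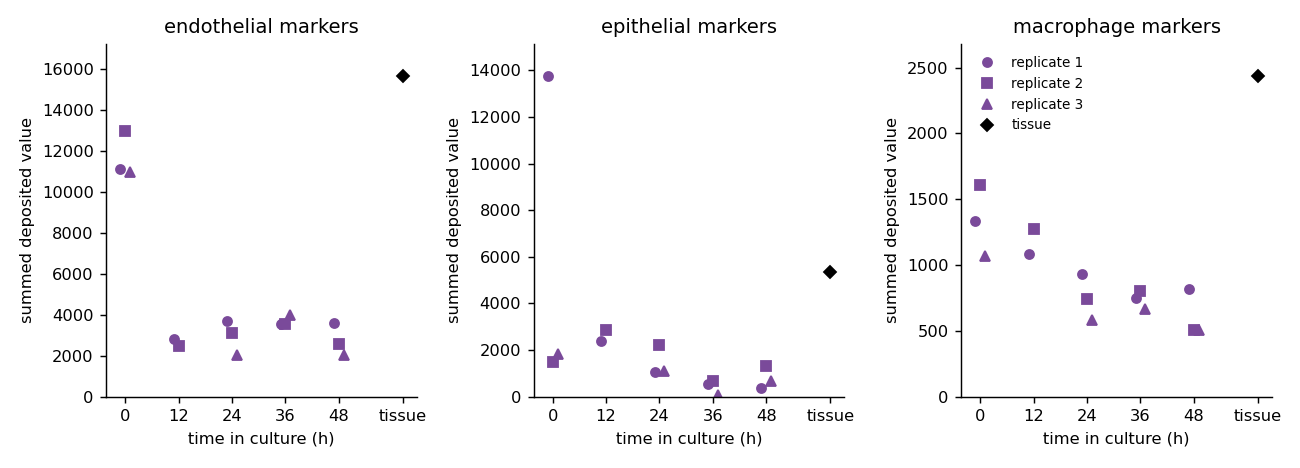
Summed deposited value of the measured endothelial, epithelial and macrophage markers in each library against time in culture in hours, with replicates as symbols and the tissue as a diamond. The endothelial sum is at 10971 or more in all libraries of 0 h and at 4018 or less in culture; 1 library of 0 h stands apart at 13749 in the epithelial sum.

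Pdgfc encodes the C chain, a further ligand of PDGFRα that is secreted as a latent protein. It was at 683, 580 and 725 at 0 h and at 2506 and 1928 at 12 h. From then on it held its level, with 2181, 2404 and 2114 at 24 h and 2007, 1988 and 1921 at 36 h. The last libraries, of 48 h, held 1577, 2164 and 2026. All 11 cultured libraries were above all libraries of 0 h, while within culture the libraries of 24 h, at 2114 or more, were all above those of 36 h, at 2007 or less, and the other pairs of time points overlapped.

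The log2 change of Pdgfc from 0 h was 1.73 at 12 h (95% interval 1.42 to 2.05, limma adjusted p = 6.8e-07), 1.76 at 24 h, 1.58 at 36 h and 1.53 at 48 h (1.25 to 1.81, limma adjusted p = 3.3e-07), which are rises of 3.33-, 3.38-, 2.99- and 2.88-fold. No difference between the cultured time points was called. Between 12 h and 48 h it was -0.21 with a 95% interval of -0.52 to 0.11, so a slow decline of that size remains possible.

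The courses of Pdgfa and Pdgfc were set side by side in each library. Within a library, the log2 value of Pdgfa minus that of Pdgfc was -1.09 ± 0.87 (SD, n = 3) at 0 h, dropped to -2.30 at 12 h, and came back to -1.56 at 24 h, -0.64 at 36 h and -0.42 at 48 h. Averaged over all 11 cultured libraries it was 0.04 below that of 0 h, with an exact two-sided permutation p = 0.934. Without replicate 1 of 0 h it was 0.42 above (exact permutation p = 0.462), and the sign also turned when replicate 1 or 2 of 12 h or replicate 2 or 3 of 24 h was left out, so no direction can be given. The average over culture hides the course, since the libraries of Pdgfc were all above those of 0 h from 12 h on and the libraries of Pdgfa were all above those of 0 h from 36 h on.

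**Figure D4:**
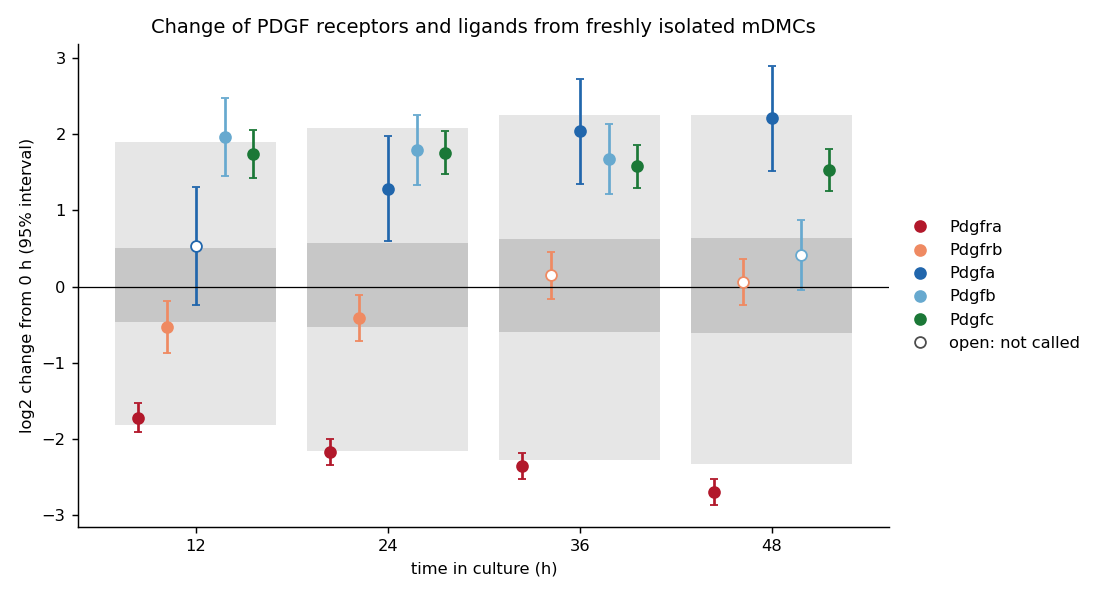
Log2 change from 0 h with its 95% interval for each PDGF receptor and ligand gene at 12, 24, 36 and 48 h of culture, filled where the limma adjusted p was below 0.05 and open where it was not; the grey bands hold the central 50% (dark) and 90% (light) of all transcripts tested. Pdgfra lies beyond the lower end of the light band from 24 h on, and Pdgfb returns to 0.41 at 48 h.

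The tissue library gives a single value per gene and allows no test. Pdgfra was at 14316 in the tissue, 0.20 below the mean of 0 h on the log2 scale and far above the highest cultured library, 5100. Pdgfc at 578 was just under the lowest library of 0 h. Pdgfa at 471 lay inside the range of 0 h, and Pdgfb at 212 above the highest library of 0 h, 188. Pdgfrb was lower in the tissue, at 3546, than in all libraries of 0 h, and the difference of Pdgfra minus Pdgfrb was 2.01, above the 1.73 reached at 0 h.

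The transcripts whose time course was most like each gene were found from the 5 time point means of log2(value + 1), centred on their own mean, by the root mean square difference. For Pdgfra they were Jarid2, a cofactor of the Polycomb complex (0.036), Tmtc2 (0.077) and Zmiz1os1 (0.086), an antisense RNA whose reads cannot be told from those of its partner where strand was not used. For Pdgfa they were Nudt22 (0.083), Asah1, an acid ceramidase (0.085), and Cnbd2 (0.086). Those nearest to Pdgfb were less close, with Slc7a3, a transporter of cationic amino acids, at 0.14, Gm2163 at 0.20 and Aldh1a7 at 0.23. For Pdgfc they were Timp3, an inhibitor of metalloproteinases (0.050), Lig4, a DNA ligase (0.054), and Slit2, a secreted guidance protein (0.056). The median over all 11958 transcripts compared was 0.99 for Pdgfra, 0.89 for Pdgfa, 0.85 for Pdgfb and 0.71 for Pdgfc. Pdgfrb, which never changed over 2-fold, was not matched.

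Among related growth factors and receptors, 14 of 15 listed genes were measured, and at 48 h 5 were called higher, 5 lower and 4 not called, with a median log2 change of -0.22 beside 0.03 over all transcripts. Over all transcripts, 37.1% were called higher and 34.0% lower at 48 h, which is close to the shares of this list and is the background for the lists that follow. Pdgfd, the ligand of PDGFRβ that was listed here with the relatives, rose from 446 ± 69.6 (SD, n = 3) at 0 h to 1269 ± 65.5 at 48 h (log2 change 1.52), and was at 542 in the tissue. Its relative Pdgfrl, which encodes a receptor-like protein without a kinase domain, rose by 1.65. Csf1, the macrophage growth factor, had the largest rise of the list, from 712 ± 192 to 6627 ± 624 (3.25). The receptor genes Csf1r, Kdr and Kit also changed, with log2 changes of -2.50, -2.35 and -2.16. Kdr is itself on the endothelial list and Csf1r on the macrophage list, and both lists were lower at 48 h than at 0 h, with sums over the 6 measured macrophage markers of 1070 to 1611 at 0 h and 505 to 817 at 48 h. The part of these cells in the Kdr, Kit and Csf1r levels was not tested.

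Genes for the processing and binding of PDGF were measured for 11 of 11 names. At 48 h 6 were called higher, 3 lower and 2 not, beside 37.1% higher and 34.0% lower over all transcripts, with a median of 0.45. Plau, which encodes the urokinase protease, was at 387 to 480 at 0 h and at 6197 to 7223 at 48 h (log2 change 3.88). Thbs1, encoding the matrix protein thrombospondin 1, went from 4192 ± 127 to 70508 in each library of 48 h, a rise of 4.07 that ran into the top ranks of the scale. Sparc, another matrix protein that binds PDGF, rose by 1.11. The proprotein convertase gene Pcsk5 fell from 817 ± 107 to 105 ± 8, while Pcsk6 (-0.49) and the co-receptor gene Nrp1 (-0.39) were less far below 0 h at 48 h. Before that Pcsk6 was called higher than at 0 h, with log2 changes of 1.26, 0.74 and 0.45 at 12, 24 and 36 h. Furin and Plat, named here after their values had been seen because their products are known to cleave the A and B chains and the C chain, had log2 changes of 0.48 and 0.45 at 48 h (limma adjusted p = 0.0104 and 0.0437). Plat was not called at the earlier times, where its log2 changes were -0.05, -0.27 and -0.24 at 12, 24 and 36 h, and Furin was called at 12 h and 24 h (0.81 and 0.47) but not at 36 h (0.23).

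The receptor adaptors and effectors were all measured (35 of 35), and at 48 h 10 were called higher, 13 lower and 12 not, beside 37.1% and 34.0% of all transcripts, with a median of -0.09. Most of these changes were small, and only 3 in each direction passed 2-fold. Pik3cb, a catalytic subunit of phosphoinositide 3-kinase, rose from 49.7 ± 8.02 to 238 ± 34.0 (log2 change 2.24), Hras by 1.43 and the kinase gene Map2k1 by 1.07. The docking protein gene Gab1 fell from 2973 ± 1572 to 431 ± 38.0 (-2.67), Plcg1, the phospholipase C that binds activated PDGF receptors, by 1.44, and Pik3r2, a regulatory subunit of phosphoinositide 3-kinase, by 1.25.

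Negative regulators of receptor signalling were measured for 14 of 14 names, and 3 were called higher, 5 lower and 6 not at 48 h, beside 37.1% and 34.0% of all transcripts (median -0.18). The phosphatase gene Dusp4 rose by 2.53 and the Sprouty gene Spry2 by 0.66. Spry1, another Sprouty gene, fell by 1.76, the ubiquitin ligase gene Cblb by 1.31 and Spred1 by 1.01.

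Early genes known to be induced by PDGF, such as Fos and Egr1, are switched on within minutes by many stimuli. All 13 listed were measured, and at 48 h 2 were called higher (37.1% of all transcripts), 8 lower (34.0%) and 3 not, with a median of -1.67. Fos was at 16498 to 127101 at 0 h and at 595 to 1312 at 48 h (log2 change -5.61), Fosb fell by 4.62 and Egr1 by 2.80. The libraries of 0 h differed widely in these genes, Egr1 for example from 2540 to 8276, and the tissue was at 15089 for Fos. The 2 that rose were the chemokine genes Ccl2, from 23.7 ± 8.62 to 729 ± 43.1 (4.94), and Ccl7, from 6 ± 1 to 50 ± 23.6 (2.78), both near the bottom of the scale at 0 h. The counts of these 5 lists at 48 h without replicate 1 of 0 h, computed after the values had been seen, were identical except for 4 genes lower in place of 3 among the genes for processing and binding.

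**Figure D5:**
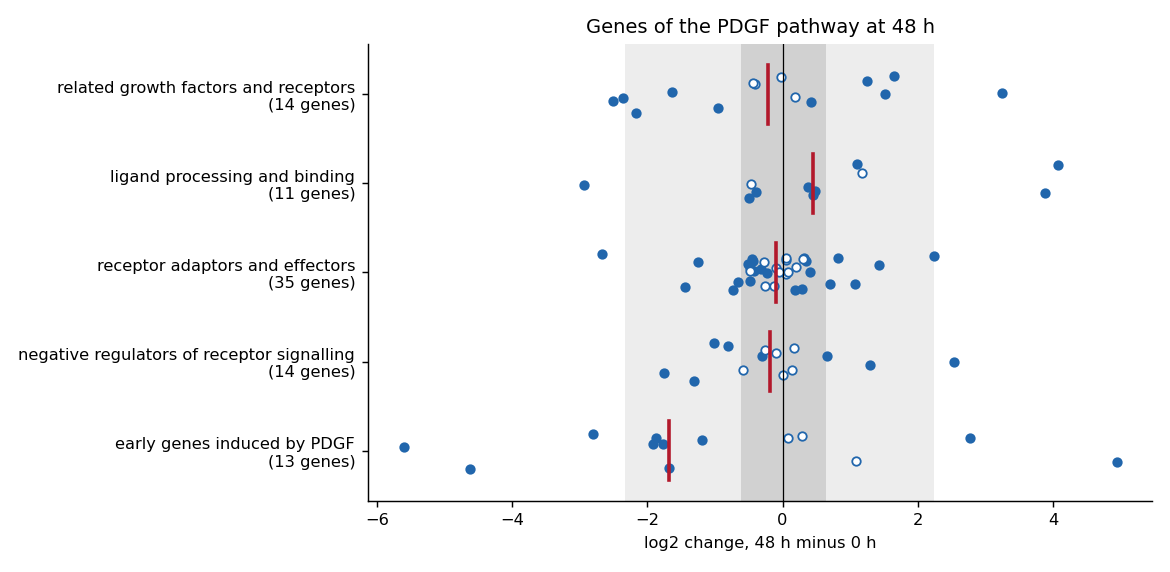
Log2 change from 0 h to 48 h of each measured gene in 5 lists of the PDGF pathway, filled where the limma adjusted p was below 0.05; red bars are list medians and the grey bands hold the central 50% (dark) and 90% (light) of all transcripts tested. The early genes have the lowest median, -1.67, and the genes for processing and binding the highest, 0.45.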

How the data were processed

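RNA-seq of 14 mDMC libraries and 1 tissue library was taken as deposited. Per the study's methods and the submitters' processing notes, the authors aligned reads with bowtie and RSEM to mouse transcripts of build mm10 (RSEM version 1.1.21 in the notes; the methods name another). The deposited score, labelled CPM in the table, holds whole numbers made by the authors and set to a common distribution by rank, so it was treated neither as counts nor as CPM; the design written beforehand had foreseen CPM. Depth per library is unknown, and no counting interval can be given. Strand use in counting is not given in the sources used here. Gene names were matched through the Ensembl transcript (11973 of 12089); coordinates come from the GENCODE annotation of GRCm38 and promoter windows from RefSeq, printed for 3 of the 5 genes.

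Groups follow the labels. Values were tested as log2(value + 1) with limma 3.58.1 (R 4.3.3; moderated variance with an intensity trend, 1 mean per time, two-sided), keeping the 12079 transcripts that reached 1 ppm of a library's total in 2 or more libraries. Within-library differences used exact permutation tests. On simulated data for 48 h against 0 h (11882 genes tested), 75 of 99 tested genes changed by 1 on the log2 scale and 98 of 99 changed by 2 were called, with 9 of 11684 unchanged ones. Only 100 transcripts were changed by each amount in that run, whereas 71.2% of the deposited transcripts tested were called at 48 h against 0 h. Whether the shares called in that run hold for the deposited score was not tested. The genes and lists were chosen with earlier results of the deposited data known. Genes were named by rule: all PDGF genes, the 3 transcripts nearest in time course to each gene changed over 2-fold, and up to 3 rises and 3 falls per list at 48 h, of which 1 is not reported here. Alternatives were another pseudocount (0.1), 2 other filters, trimmed-mean scaling, 2 other variance settings, only the time points compared, a replicate block and leaving out each library.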

Additional observations from a re-analysis of the deposited data

How the results depend on the processing

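Of 500 recomputed values under settings that kept all libraries, 493 were labelled as unchanged. For a tested change this meant the same direction and the same side of the threshold. For a count of genes, which has neither, it meant an equal count or one of similar size. With only the time points compared in the fit, Pdgfra at 24 h against 12 h (log2 change -0.45, limma adjusted p = 0.104) and Pdgfrb at 24 h against 0 h (-0.41, limma adjusted p = 0.050) lost their calls, so 1 gene in place of 2 was lower at 24 h, and Pdgfa at 36 h against 24 h gained one (0.75, limma adjusted p = 0.0291), as did 48 h against 24 h (0.92, limma adjusted p = 0.0244). With at least 1 ppm in all 14 libraries, 0 early genes were higher at 48 h in place of 2, as that filter removes low genes such as Ccl7. Trimmed-mean scaling, another pseudocount and the variance settings changed no call of the 5 genes.

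Leaving out 1 library at a time, the log2 change from 0 h ranged from 0.19 to 1.01 for Pdgfa at 12 h, from -0.68 to -0.38 for Pdgfrb at 12 h, from -0.52 to -0.28 at 24 h and from -0.038 to 0.18 at 48 h, and from 0.22 to 0.69 for Pdgfb at 48 h. Between time points it ranged from -0.52 to -0.39 for Pdgfra at 24 h against 12 h, from -0.032 to 0.27 and from 0.44 to 0.66 for Pdgfrb at 24 h against 12 h and 36 h against 24 h, from 0.60 to 0.98 and from 0.52 to 0.90 for Pdgfa over the same steps, from -1.37 to -1.13 for Pdgfb at 48 h against 36 h, and for Pdgfc from -0.17 to 0.21 at 24 h against 12 h, from -0.35 to 0.032 at 36 h against 12 h and from -0.14 to 0.087 at 48 h against 36 h. The fall of Pdgfb from 36 h to 48 h passed the threshold without replicate 2 of 0 h, replicate 1 of 24 h or replicate 1 of 48 h (limma adjusted p = 0.0128, 0.0250 and 0.0361). The libraries of 0 h and 24 h enter that comparison only through the pooled spread. The number of genes called lower was 1 to 2 at 12 h and at 24 h. The receptor difference stayed between -2.25 and -2.03 and the ligand difference ran from -0.45 to 0.42.

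The replicate numbers were not taken to pair the libraries, under a rule that asked every same-numbered pair to correlate over 0.1. Such a rule cannot show that same-numbered libraries were unrelated. Their deviations correlated at 0.077 on average, with 11 of 26 pairs over 0.1, against -0.038 and 6 of 52 pairs for libraries with different numbers. With the replicate number as a block, 8658 in place of 8599 transcripts were called at 48 h against 0 h and 7 in place of 3 at 48 h against 36 h, and Pdgfa at 48 h against 24 h gained a call (0.92, limma adjusted p = 0.0228). Other sources of change were not tested. Because values follow ranks, small changes near coinciding ranks and changes at the top of the scale cannot be resolved.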
